A study of Homo sapiens with 4 samples.

Results

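The 51 genes described here act in DNA repair and in the signalling of DNA damage. They were taken as a list of symbols covering homologous recombination, the MRE11-RAD50-NBN complex, the Fanconi anaemia pathway, mismatch repair, end joining, base excision and single-strand break repair, damage signalling kinases, RecQ helicases and CDK12. Each symbol was mapped to 1 Ensembl gene identifier, and all 51 were present among the 60671 genes listed for both cell lines. The rule for membership uses no measured value, but the genes were chosen with earlier results of these data known.

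The samples were 4 bulk RNA libraries from 22RV1 and PC3, established human prostate carcinoma cell lines, each stably infected with a pLKO.1 lentivirus carrying either a control shRNA (shCON) or an shRNA against DDX52 (shDDX52) and selected with puromycin. DDX52 encodes a DEAD-box RNA helicase, and the comparison of shDDX52 with shCON asks which transcripts differ when it is depleted. All 4 groups carry the vector and the selection, a single shRNA sequence was used against DDX52, and each condition has 1 library. No difference below has a replicate check within its line, and no p-value or standard deviation is given. The 2 lines were described side by side and not as replicates.

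Cells repair DNA by pathways matched to the lesion. Double-strand breaks are rejoined by end joining or copied from a sister chromatid by homologous recombination, which the MRE11-RAD50-NBN complex starts and BRCA1, PALB2 and BRCA2 carry forward. Interstrand crosslinks are handled by the Fanconi anaemia pathway, replication errors by mismatch repair, and small base lesions and nicks by base excision and single-strand break repair. Inherited or somatic defects in several of these genes are well known in prostate cancer, where loss of homologous recombination sensitises tumours to PARP inhibitors.

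Values are TPM, a level corrected for transcript length within each library, so levels of different genes can be set side by side. A difference is given as a log2 ratio, log2((TPM shDDX52 + 1)/(TPM shCON + 1)), for genes that reached 1 TPM in 1 or both of the libraries compared. A gene is said to have risen or fallen where this ratio passed 1.5-fold, a log2 ratio of 0.585. The number of reads behind each TPM value is unknown, which leaves the counting error of low values unknown.

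Below, a pair of values for a line gives the shCON library first and the shDDX52 library second. DDX52 was at 4.88 and 1.20 TPM in 22RV1 and 9.20 and 2.07 TPM in PC3. The shDDX52 libraries thus held 24.6% and 22.5% of the control level. KLK3, which encodes prostate-specific antigen, was at 6.84 and 4.51 TPM in the 22RV1 libraries and listed at 0 in both PC3 libraries, and CAV1, a caveolar protein, was at 0.45 and 0.39 TPM in 22RV1 against 162 and 130 TPM in PC3. Between 13504 and 13738 genes reached 1 TPM per library. Mitochondrially encoded genes took 8.10% (PC3 shCON) to 13% (22RV1 shDDX52) of TPM and were higher with shDDX52 in both lines, and ribosomal RNA genes took 0.0872% to 3.13%, highest in PC3 shDDX52. A scaling to nuclear protein-coding genes, which leaves both kinds out, is given below. Their part in the results was not tested beyond such rescaling.

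The repair genes differed widely in level. XRCC6, a subunit of the Ku heterodimer that binds DNA ends, was the most abundant at 341 to 675 TPM, followed by PARP1 and APEX1 in the order of levels in the control libraries of 22RV1. LIG4, the ligase of end joining, was among the lowest at 0.58 to 1.86 TPM. Their median level was 17.2 and 12.4 TPM in the 22RV1 libraries and 9.80 and 9.76 TPM in those of PC3, and 46 to 51 of the genes reached 1 TPM in a library. Their summed level was 2501 and 2278 TPM in 22RV1 and 1751 and 1595 TPM in PC3, lower with shDDX52 in each line. These sums depend on what else each library holds, and they were not recomputed on another scaling. With TPM rescaled to nuclear protein-coding genes, the median log2 ratio of the repair genes went from -0.13 to -0.0047 in PC3. In 22RV1 it went from -0.21 to -0.20. In bulk RNA, fewer cells of one kind and less RNA per cell cannot be told apart.

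**Figure D1:**
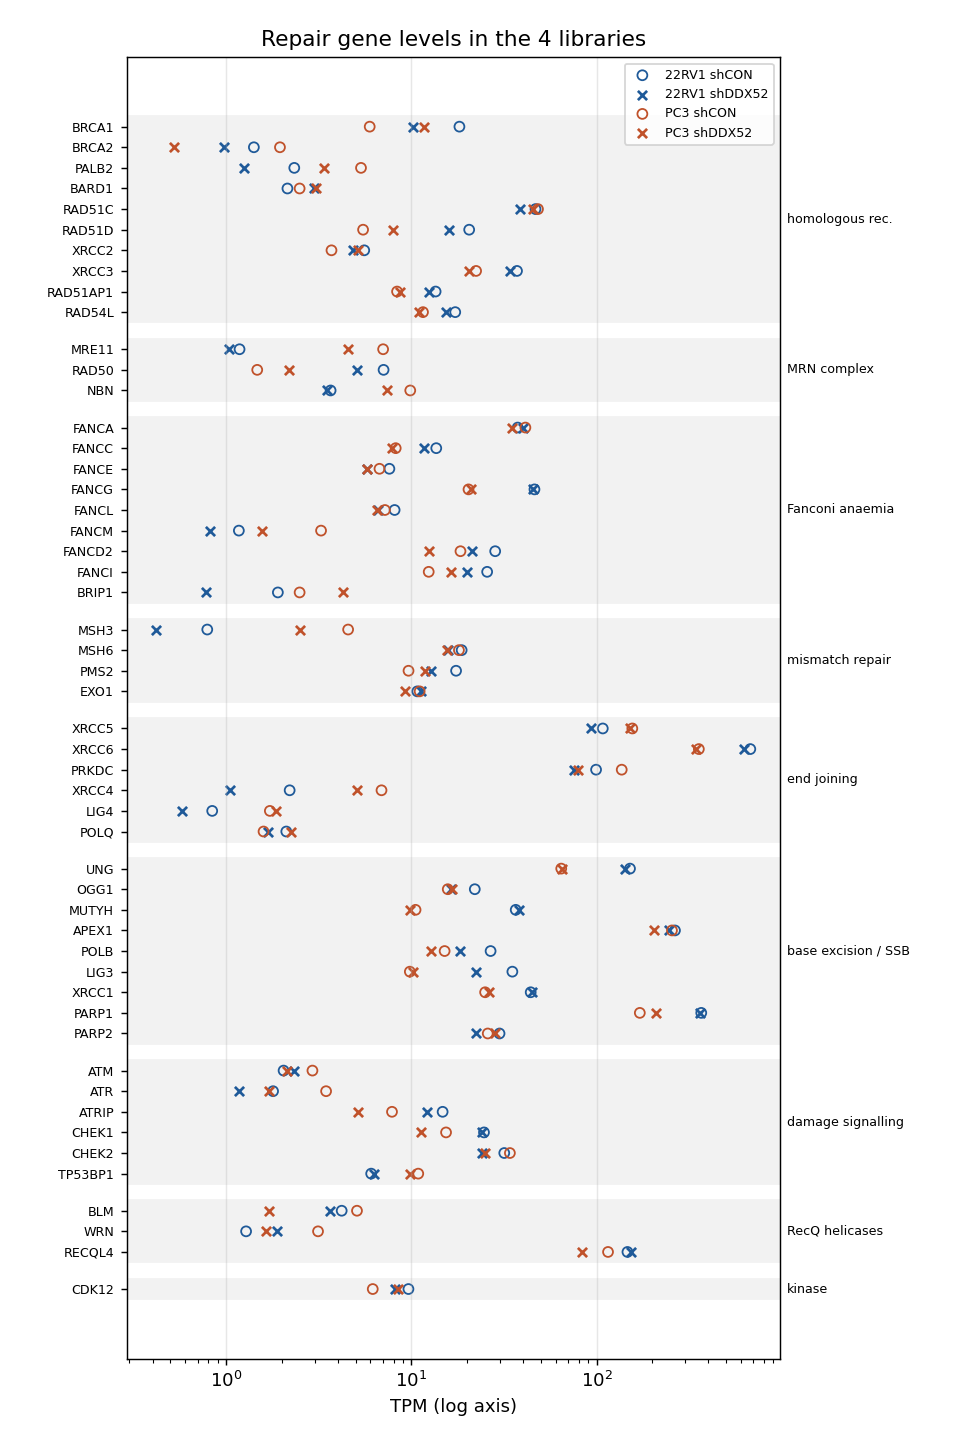
Level of each of the 51 repair genes in the 4 libraries, in TPM on a logarithmic axis, 1 point per library and gene, ordered by pathway. XRCC6, PARP1 and APEX1 sit at the upper end, and LIG4 and BRCA2, under 2 TPM in every library, at the lower end.

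In 22RV1, 40 of the 49 repair genes tested were lower with shDDX52 and 9 were higher, beside 58.8% lower and 40.9% higher among all 14438 genes tested. Their median log2 ratio was -0.21, against -0.076 for all genes. The shift was small for single genes, and 4 repair genes fell past 1.5-fold (8.47% of all genes did), BRCA1, BRIP1, XRCC4 and LIG3, while 0 rose (5.61% of all genes). None passed 2-fold in 22RV1 (2.86% of all genes did downward and 2.24% upward). The 4 called genes are 8.16% of the list, near the background. The share lower was 67.3% (33 of 49) when each ratio was centred on genes alike in transcript length and in GC, with a median of -0.087.

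In PC3, 32 of 51 repair genes were lower with shDDX52 and 19 were higher, beside 53.5% and 46.3% of all 14262 genes. The median log2 ratio was -0.13 against -0.036 for all genes. BRCA2, FANCM, MSH3, PRKDC, ATR, BLM and WRN fell past 1.5-fold (7 of 51, where 9.84% of all genes did), and BRCA1 and BRIP1 rose (2 of 51, where 8.95% did). With the pseudocount of 1 TPM, BLM alone passed 2-fold, downward, as 3.44% of all genes did, and 0 did so upward (2.86%). When TPM was rescaled to nuclear protein-coding genes, the median of all PC3 genes moved from -0.036 to 0.084 and 26 of 51 repair genes were lower. Relative to the median of all genes, the repair genes lay at -0.092 before and -0.089 after this rescaling.

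**Figure D2:**
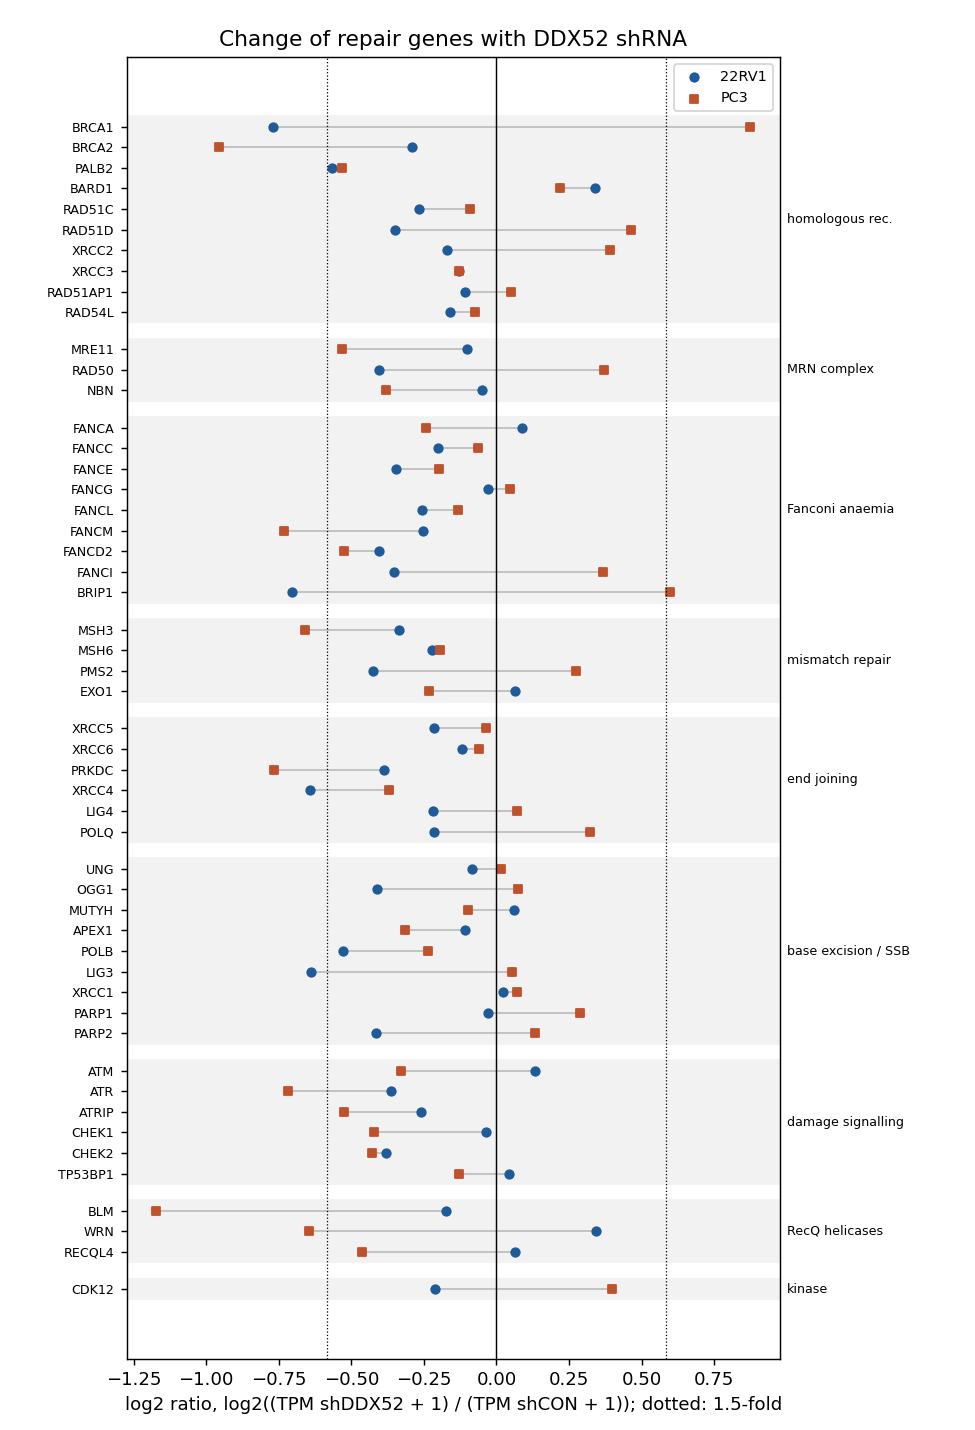
Log2 ratio of shDDX52 over shCON for each repair gene in 22RV1 and PC3, from 1 library per condition, with dotted lines at 1.5-fold and with MSH3 and LIG4 shown in 22RV1 although they were under 1 TPM there. In 22RV1 most points lie slightly left of 0, while in PC3 they spread more widely, from BLM at -1.17 to BRCA1 at 0.87.

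Of the 49 repair genes tested in both lines, 24 were lower in both (32.5% of the 12175 genes tested in both were), 2 were higher in both (18.5%), 16 were lower in 22RV1 and higher in PC3 (27.4%), and 7 were higher in 22RV1 and lower in PC3 (21.4%). Across the genes the ratios of the lines had a Spearman rho of -0.14 over 49 repair genes and 0.012 over all genes. Genes share the same 4 libraries, so these are descriptions. At a log2 ratio of 0.32 or more in size, 6 were lower in both lines (PALB2, FANCD2, PRKDC, XRCC4, ATR and CHEK2, where 5.22% of all genes were), 5 were lower in 22RV1 and higher in PC3 (BRCA1, BRIP1, RAD51D, RAD50 and FANCI, where 4.64% were), WRN alone went the other way (2.6%), and 0 were higher in both (2.45%). Under the rescalings and centrings tried, only PALB2, BRCA1, BRIP1 and WRN of these genes stayed past 0.32 in both lines. The smallest 22RV1 ratios were -0.19 for FANCD2, -0.17 for PRKDC, -0.20 for ATR and -0.13 for CHEK2. They were -0.14 for RAD51D, -0.24 for RAD50 and -0.12 for FANCI, and XRCC4 came to -0.05 in PC3. The signs were kept. Past 1.5-fold in each line, BRCA1 and BRIP1 were lower in 22RV1 and higher in PC3 (2 of 49, where 1.15% of all genes were). By that threshold 0 were lower in both (1.18%), higher in both (0.706%) or higher in 22RV1 and lower in PC3 (0.805%).

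BRCA1, a ubiquitin ligase that promotes resection of broken ends and loads the recombinase through PALB2 and BRCA2, was at 18.2 and 10.2 TPM in 22RV1, but at 5.95 and 11.7 TPM in PC3. The log2 ratio was -0.77 in 22RV1 and 0.87 in PC3. The control libraries of the 2 lines were further apart than their shDDX52 libraries, since PC3 over 22RV1 was -1.46 in the shCON pair and 0.18 in the shDDX52 pair on the log2 scale. BRIP1, a helicase that binds BRCA1, was at 1.90 and 0.78 TPM in 22RV1 and at 2.49 and 4.28 TPM in PC3, log2 ratios of -0.70 and 0.60. Its 22RV1 shDDX52 library was the lowest of the 4 and its PC3 shDDX52 library the highest. The difference between the lines was not tested for either gene.

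**Figure D3:**
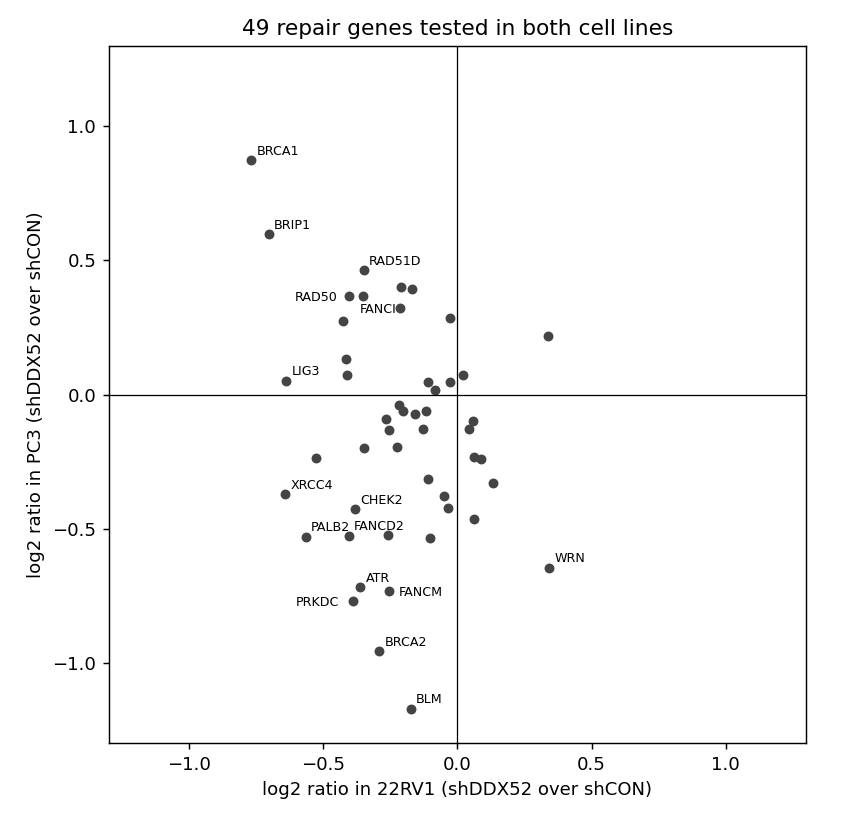
Log2 ratio of shDDX52 over shCON in 22RV1 (horizontal) against PC3 (vertical) for the 49 repair genes tested in both lines, 1 point per gene. BRCA1 and BRIP1 stand at upper left, lower in 22RV1 and higher in PC3, and PALB2, FANCD2, PRKDC, XRCC4, ATR and CHEK2 at lower left.

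The promoters of 6 genes named in these comparisons are shown so that their sequence can be set beside the values: BRCA1 and BRIP1, which moved in opposite directions in the 2 lines, PALB2, XRCC4 and FANCD2, which were lower in both, and BLM, which passed 2-fold in PC3. Each run is the 250 bases before the transcription start in RefSeq on GRCh38.p14, written 5′ to 3′ on the strand of the gene: BRCA1 at chr17:43125365-43125614 (minus strand), BRIP1 at chr17:61863529-61863778 (minus), PALB2 at chr16:23641311-23641560 (minus), XRCC4 at chr5:83077297-83077546 (plus), FANCD2 at chr3:10026187-10026436 (plus) and BLM at chr15:90717096-90717345 (plus). Capitals mark matches on either strand to CCAAT (the NF-Y box), CCGGAAG (an ETS site) and TTTGAA (the CHR element of cell cycle genes).
BRCA1: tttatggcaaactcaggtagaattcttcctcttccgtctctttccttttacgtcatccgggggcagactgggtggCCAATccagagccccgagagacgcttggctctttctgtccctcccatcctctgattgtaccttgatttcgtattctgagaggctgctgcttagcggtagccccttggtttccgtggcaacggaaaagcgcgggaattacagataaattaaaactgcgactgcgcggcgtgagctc
BRIP1: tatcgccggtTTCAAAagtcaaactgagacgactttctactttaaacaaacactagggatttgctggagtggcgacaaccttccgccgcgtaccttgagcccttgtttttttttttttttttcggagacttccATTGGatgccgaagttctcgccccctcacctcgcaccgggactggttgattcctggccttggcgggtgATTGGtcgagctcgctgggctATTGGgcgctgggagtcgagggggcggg
PALB2: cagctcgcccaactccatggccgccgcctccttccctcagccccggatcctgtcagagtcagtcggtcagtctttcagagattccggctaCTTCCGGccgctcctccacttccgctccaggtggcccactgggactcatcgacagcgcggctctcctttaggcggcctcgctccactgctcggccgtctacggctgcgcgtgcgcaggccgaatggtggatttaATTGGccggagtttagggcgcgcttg
XRCC4: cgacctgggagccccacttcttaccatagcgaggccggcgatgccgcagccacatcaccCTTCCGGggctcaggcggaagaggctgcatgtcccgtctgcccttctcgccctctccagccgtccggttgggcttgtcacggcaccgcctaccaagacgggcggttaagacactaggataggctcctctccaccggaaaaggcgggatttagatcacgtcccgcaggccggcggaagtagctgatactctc
FANCD2: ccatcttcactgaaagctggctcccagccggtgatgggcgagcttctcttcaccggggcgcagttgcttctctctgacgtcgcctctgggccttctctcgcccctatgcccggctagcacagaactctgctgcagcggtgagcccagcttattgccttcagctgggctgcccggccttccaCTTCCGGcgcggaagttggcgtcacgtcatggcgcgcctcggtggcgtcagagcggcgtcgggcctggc
BLM: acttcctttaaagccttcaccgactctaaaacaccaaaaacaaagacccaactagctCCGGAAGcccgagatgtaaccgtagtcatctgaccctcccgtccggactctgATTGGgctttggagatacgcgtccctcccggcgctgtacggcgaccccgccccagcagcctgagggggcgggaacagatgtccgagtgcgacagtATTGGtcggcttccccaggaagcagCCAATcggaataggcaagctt
BRCA1 has 1 CCAAT match, BRIP1 and BLM have 3 each, and XRCC4 and FANCD2 have none but hold 1 CCGGAAG match each. PALB2 has 1 of each. CCAAT matches were thus found both in the pair of opposite direction and in PALB2 and BLM.

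Windows of this kind were given for 41 of the 51 genes, and 37 of the 41 contained the first 20 bases of the GENCODE transcript. CCAAT was present in 51.2% of the 41 (21 windows), against 35.1% of 13888 promoters, and CCGGAAG in 26.8% (11) against 12.6%. TTTNGCGC, an E2F site, was found in 9.76% (4) against 2.0%, and GGGCGG, an SP1 box that is not in capitals above, in 70.7% (29) against 58.9%. CACGTG, the E-box bound by MYC, was found in 7.32% (3) against 7.81%, TTTGAA in 12.2% (5) against 10.4%, and the palindromic NRF1 motif in 0 against 1.55%. All motifs were searched on both strands. A match to these letters is not evidence that a factor binds.

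Among the 10 homologous recombination genes, 9 were lower with shDDX52 in 22RV1 (58.8% of all genes were) and 5 in PC3 (53.5%). Their median log2 ratios were -0.22 and -0.01. The PC3 median turned positive, to 0.11, on nuclear protein-coding scaling, where the median of all PC3 genes was 0.084. PALB2, which bridges BRCA1 and BRCA2, was at 2.33 and 1.2 TPM in 22RV1 and 5.34 and 3.39 TPM in PC3, lower with shDDX52 in each line by nearly the same ratio (-0.57 and -0.53). BRCA2, which loads the recombinase on single-stranded DNA, was at 1.41 and 0.97 TPM in 22RV1 and fell in PC3 from 1.95 to 0.52 TPM (-0.29 and -0.96). BRCA2 was under 2 TPM in all 4 libraries, where the counting error is unknown. Its PC3 shDDX52 level was 26.7% of control, and with a pseudocount of 0.1 TPM its ratio was -1.73 and that of BLM -1.52, so their order depends on the pseudocount. RAD51D, a recombinase paralog, was at 20.5 and 15.9 TPM in 22RV1 and at 5.48 and 7.94 TPM in PC3 (-0.35 and 0.46), the same directions as BRCA1. XRCC2, its partner in a paralog complex, was at 5.56 and 4.83 TPM in 22RV1 and 3.70 and 5.17 TPM in PC3 (-0.17 and 0.39), although the 22RV1 sign was positive, 0.077, after centring on length and GC content. BARD1, the obligate partner of BRCA1, did not share its pattern. It was at 2.14 and 2.97 TPM in 22RV1 and 2.49 and 3.06 TPM in PC3, and with XRCC1 was one of the 2 genes higher with shDDX52 in both lines. For XRCC1 the 22RV1 ratio was only 0.02, and its lowest value under the rescalings and centrings was -0.03. RAD51C, XRCC3, RAD51AP1 and RAD54L had log2 ratios between -0.27 and -0.11 in 22RV1 and between -0.13 and 0.05 in PC3.

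The MRE11-RAD50-NBN complex, which senses ends and starts resection, differed more between the lines than with the shRNA. MRE11, its nuclease, was at 1.18 and 1.03 TPM in 22RV1 and 7.03 and 4.55 TPM in PC3. NBN was at 3.66 and 3.50 TPM in 22RV1 and 9.85 and 7.34 TPM in PC3. RAD50, the coiled-coil ATPase that holds the ends, ran the other way, at 7.07 and 5.10 TPM in 22RV1 and 1.47 and 2.19 TPM in PC3. In each of these genes the libraries of one line did not overlap those of the other, with MRE11 and NBN above and RAD50 below in PC3. Such a gap was common: both PC3 libraries lay above both 22RV1 libraries in 38% of all genes and below in 41.1%. With shDDX52, MRE11 and NBN were lower in PC3 (-0.53 and -0.38) and RAD50 was higher (0.37), while in 22RV1 RAD50 was lower (-0.40) and MRE11 and NBN stood at -0.10 and -0.05. The reference places a second gene, AC116366.3, on the same strand over 90.6% of RAD50 exon bases, so reads may have been split between them.

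Of the 9 Fanconi anaemia genes, 8 were lower in 22RV1 (58.8% of all genes were) and 6 in PC3 (53.5%), with medians of -0.26 and -0.13. On nuclear protein-coding scaling the PC3 median was -0.02 with 5 of 9 lower, and the 22RV1 median was -0.12 when centred on length and GC. The core complex members FANCA, FANCC, FANCE, FANCG and FANCL lay between -0.35 and 0.09 in 22RV1 and between -0.24 and 0.05 in PC3. None passed 1.5-fold, where 8.47% of all genes fell and 5.61% rose in 22RV1, and 9.84% and 8.95% in PC3. FANCM, the translocase that recruits the core complex to DNA, was at 1.17 and 0.82 TPM in 22RV1 and fell from 3.25 to 1.56 TPM in PC3 (-0.73). FANCD2 and FANCI form the clamp that the core complex ubiquitinates. FANCD2 was at 28.3 and 21.1 TPM in 22RV1 and 18.4 and 12.5 TPM in PC3, lower with shDDX52 in both (-0.41 and -0.53). FANCI was at 25.6 and 19.9 TPM in 22RV1 but at 12.4 and 16.3 TPM in PC3 (-0.35 and 0.37). Both parts of the clamp therefore lay on the same side of 0 in 22RV1 and on opposite sides in PC3.

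**Figure D4:**
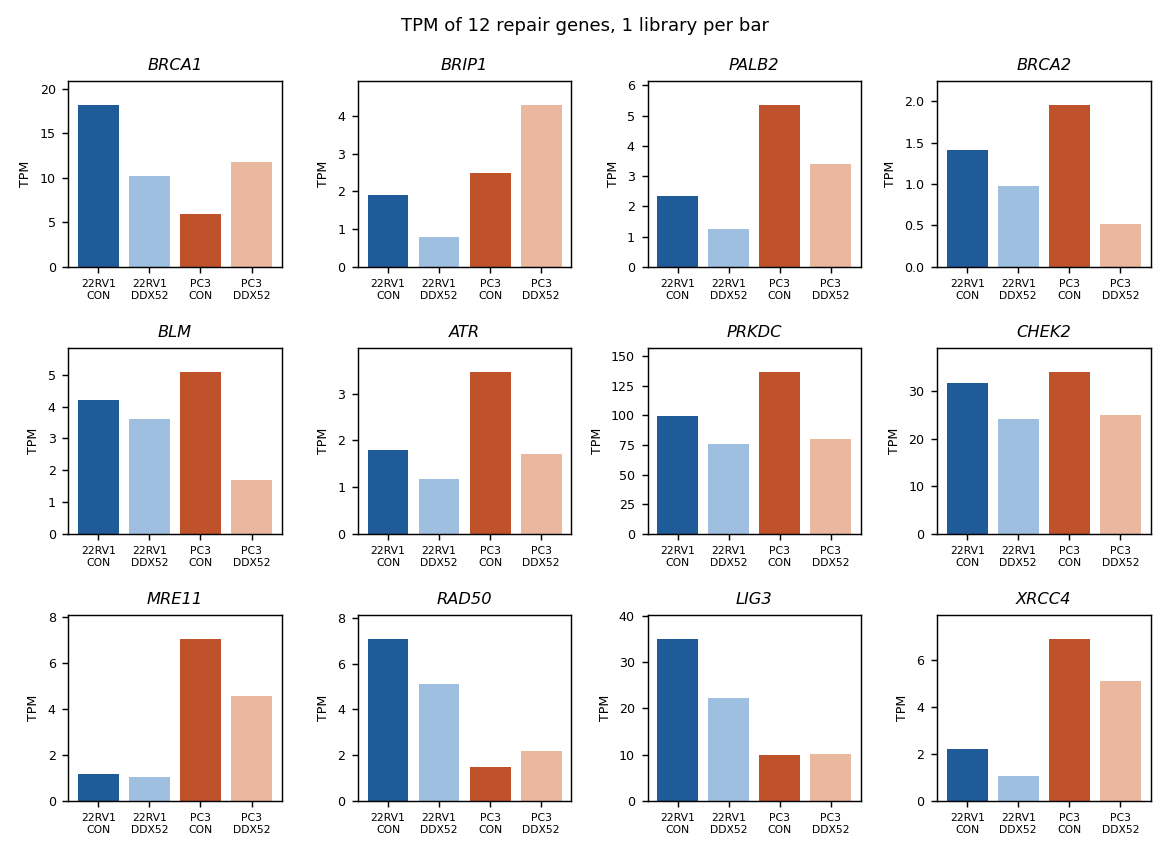
TPM of 12 repair genes in the 4 libraries, 1 bar per library with no error bars because each condition has 1 library, dark bars shCON and light bars shDDX52. BRCA1, BRIP1 and RAD50 step down in 22RV1 and up in PC3, PALB2, ATR, PRKDC, CHEK2 and XRCC4 step down in both, and MRE11 and XRCC4 are higher and LIG3 lower in PC3.

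Of the mismatch repair genes, MSH3, which with its partner recognises larger loops, was at 0.79 and 0.42 TPM in 22RV1, too low to be tested there, and fell in PC3 from 4.55 to 2.51 TPM (-0.66). MSH6, which recognises single mismatches, was at 18.7 and 15.8 TPM in 22RV1 and 18.0 and 15.6 TPM in PC3, with close values in the 2 lines (-0.22 and -0.20). PMS2, the endonuclease subunit, was at 17.4 and 12.7 TPM in 22RV1 and 9.64 and 11.9 TPM in PC3 (-0.43 and 0.28). It has 11 named copies in the annotation, so its level is uncertain. EXO1, the exonuclease that removes the mismatched strand, was between 9.27 and 11.3 TPM in all 4 libraries.

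Among the end joining genes, PRKDC, the catalytic subunit of DNA-dependent protein kinase, was at 99.2 and 75.6 TPM in 22RV1 and fell from 136 to 79.7 TPM in PC3 (-0.39 and -0.77). It was the one abundant repair gene to pass 1.5-fold in PC3: of the 9 with a mean of 30 TPM or more there, 1 did, as 10% of all such genes did. XRCC4, the scaffold of the ligase, fell from 2.20 to 1.05 TPM in 22RV1 and was at 6.89 and 5.10 TPM in PC3 (-0.64 and -0.37). The Ku subunits XRCC5 and XRCC6 were far higher and differed little with the shRNA, XRCC5 at 108 and 92.7 TPM in 22RV1 and 156 and 152 TPM in PC3. POLQ, the polymerase of microhomology-mediated joining, was between 1.59 and 2.24 TPM (-0.21 and 0.32). All 5 tested end joining genes were lower in 22RV1 (58.8% of all genes were), against 4 of 6 in PC3 (53.5%). In PC3, 2 of these 4 were the Ku subunits, whose signs turned positive on nuclear protein-coding scaling. The median of all PC3 genes was 0.084 on that scaling.

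Of the 9 base excision and single-strand break repair genes, 0 passed 1.5-fold in PC3, where the log2 ratios ran from -0.32 to 0.29. Of all genes, 9.84% fell and 8.95% rose past 1.5-fold there. In 22RV1, 7 of 9 were lower (median -0.11), where 58.8% of all genes were. LIG3, the ligase that works with XRCC1, fell from 35.1 to 22.2 TPM in 22RV1 (-0.64) and was at 9.80 and 10.2 TPM in PC3. XRCC1 itself was at 44.0 and 44.7 TPM in 22RV1 and 25 and 26.3 TPM in PC3, with no matching step. Exons of RFFL overlap 44.7% of LIG3 exon bases on the opposite strand, and whether counting used strand is not given in the sources used here. POLB, the gap-filling polymerase, was at 26.7 and 18.3 TPM in 22RV1 and 15.1 and 12.7 TPM in PC3 (-0.53 and -0.24). PARP1, the main sensor of single-strand breaks and the target of PARP inhibitors, was at 367 and 360 TPM in 22RV1 and 171 and 209 TPM in PC3 (-0.03 and 0.29), and PARP2 was at 29.9 and 22.2 TPM in 22RV1 and 25.8 and 28.4 TPM in PC3 (-0.41 and 0.13). The glycosylases UNG, OGG1 and MUTYH and the endonuclease APEX1 lay between -0.41 and 0.06 in 22RV1 and between -0.32 and 0.07 in PC3.

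All 6 damage signalling genes were lower with shDDX52 in PC3 (median -0.43), where 53.5% of all genes were. They remained lower under each rescaling and centring tried. In 22RV1, 4 of 6 were lower (median -0.15), where 58.8% of all genes were. ATR, the kinase that answers stalled replication, was at 1.79 and 1.17 TPM in 22RV1 and fell from 3.46 to 1.71 TPM in PC3 (-0.36 and -0.72). ATRIP, its obligate partner, was at 14.7 and 12.1 TPM in 22RV1 and 7.85 and 5.15 TPM in PC3 (-0.26 and -0.53), though TREX1 covers 33.1% of its exon bases on the same strand. CHEK1, the effector kinase of ATR, was at 24.6 and 24 TPM in 22RV1 and 15.4 and 11.2 TPM in PC3 (-0.04 and -0.42). Of these 3 genes ATR alone passed 1.5-fold in PC3, where 9.84% of all genes fell past it. Other genes linked to the ATR branch were mixed in PC3. Ratios were above 0 for TOPBP1 (0.11), CLSPN (0.10), RAD9A (0.02), RAD1 (0.03), HUS1 (0.05) and TIMELESS (0.05). WEE1, a kinase that restrains entry into mitosis, was at 0.54. Ratios were below 0 for RPA1 (-0.48), RPA2 (-0.26), RPA3 (-0.63, past 1.5-fold), RAD17 (-0.30), TIPIN (-0.31) and ETAA1 (-0.24). CHEK2, the effector of the ATM branch, was at 31.7 and 24.1 TPM in 22RV1 and 34.0 and 25 TPM in PC3, with ratios of -0.38 and -0.43. CHEK2 has 4 named copies in the annotation, which makes its level uncertain. ATM, the break-sensing kinase, was at 2.04 and 2.33 TPM in 22RV1 and 2.92 and 2.12 TPM in PC3 (0.13 and -0.33), and TP53BP1, which opposes resection, was at 6.06 and 6.27 TPM in 22RV1 and 10.9 and 9.86 TPM in PC3 (0.04 and -0.13).

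The RecQ helicases unwind recombination and replication intermediates. The 3 measured were all lower with shDDX52 in PC3 (median -0.65), where 53.5% of all genes were. BLM fell from 5.08 to 1.70 TPM in PC3 (-1.17), to 33.5% of control, and was at 4.20 and 3.61 TPM in 22RV1 (-0.17). WRN was at 1.28 and 1.89 TPM in 22RV1 and fell from 3.13 to 1.64 TPM in PC3 (0.34 and -0.65). RECQL4 was at 147 and 153 TPM in 22RV1 and 115 and 83.2 TPM in PC3 (0.06 and -0.46). The PC3 direction of each held under every rescaling tried, whereas the 22RV1 sign of RECQL4 did not. CDK12, the kinase that sustains transcription of long repair genes, was at 9.63 and 8.19 TPM in 22RV1 and 6.18 and 8.47 TPM in PC3 (-0.21 and 0.40).

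Large ratios were more common among genes at low levels. Among all genes with a mean of 1 to 3 TPM, 20.3% passed 1.5-fold in 22RV1 and 25.5% in PC3, against 4.86% and 10% at 30 TPM or more. For genes at 3 to 10 TPM in PC3, the central 95% of log2 ratios ran from -1.17 to 1.02. BRCA1 in PC3 lay inside this range and BLM at its edge. BRCA1 in 22RV1, at -0.77, lay just outside the range of genes at 10 to 30 TPM there, -0.76 to 0.63. Of the 9 calls in PC3, 8 were in genes with a mean under 10 TPM.

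Repair transcripts differed from the other genes in length and base composition. The median transcript length of the 49 genes tested in 22RV1 was 4153 bases against 2680 for all genes, and the median GC content 44.2% against 50.8%. Across the transcriptome, 71.8% of genes under 45% GC were lower with shDDX52 in 22RV1, and 53.2% of those at 45% or more. For repair genes the shares were 85.2% (23 of 27) and 77.3% (17 of 22). In PC3, genes longer than 4000 bases had a median log2 ratio of 0.10 and shorter genes -0.089, while the 28 long repair genes had -0.29 and the 23 shorter ones -0.073. The part of length and GC content in these values was not tested beyond the centring given above.

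Reads may also have been shared with overlapping genes on the opposite strand, which cover 45% of the exon bases of XRCC3, 27.4% of FANCA, 27.0% of FANCL, 25.9% of RAD54L, 23.9% of MSH6 and 12.7% of TP53BP1. XRCC6 has 5 named copies, UNG and PARP1 have 2 each, and FANCD2, MRE11 and RAD51AP1 have 1 each.

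Several repair genes start head to head with a neighbour within 1 kb. XRCC4 and TMEM167A start 97 bases apart, and TMEM167A was at 7.49 and 4.94 TPM in 22RV1 and 23.0 and 17.7 TPM in PC3 (-0.52 and -0.36), close to the ratios of XRCC4. CHEK2 and HSCB, an iron-sulfur cluster chaperone gene, start 231 bases apart, and HSCB was at 22.8 and 15.8 TPM in 22RV1 and 29.3 and 21.2 TPM in PC3 (-0.50 and -0.45). FKBP3, 628 bases from FANCM, was at 42.3 and 38.7 TPM in 22RV1 and fell from 144 to 93.7 TPM in PC3 (-0.62), beside -0.73 for FANCM. In these 3 pairs the partners had the same sign in both lines. In PC3 other partners had opposite signs. DCTN5, 82 bases from PALB2, had ratios of -0.15 and 0.07, and MCM4, 753 bases from PRKDC, of -0.14 and 0.07. In all, both partners were lower in 7 of 10 pairs in 22RV1 and 5 of 11 in PC3, with opposite signs in 3 and 6. Among all protein-coding pairs of this kind, 61.0% of 605 shared a direction in 22RV1 and 55.6% of 612 in PC3.

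Between the control libraries, 30 of 51 repair genes were lower in PC3 than in 22RV1 and 21 higher (52.3% and 47.6% of all 15727 genes), with a median log2 ratio of -0.20 against -0.067. In the shDDX52 pair 29 of 50 were lower (50.3%) and 21 higher (49.6%). The 2 tables were deposited separately, and levels are comparable across lines only as far as TPM within each library allows. At least 2-fold, 8 repair genes were lower (21.3% of all genes) and 4 higher (19.9%). In both the shCON and the shDDX52 pair, MRE11, MSH3 and XRCC4 were at least 2-fold higher in PC3 (3 of 50, where 15.8% of all genes were) and FANCG, UNG, MUTYH and LIG3 at least 2-fold lower (4 of 50, where 15.8% were). Both PC3 libraries lay above both 22RV1 libraries in 10 of 50 repair genes (38% of all genes) and below in 20 (41.1%). The shares past 2-fold in both pairs, 6% and 8% of the repair genes, were under the background, and that difference was not tested.

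In the base excision group 9 of 9 genes were lower in PC3 in the shCON pair (median log2 ratio -0.79), where 52.3% of all genes were. In the shDDX52 pair 7 of 9 were lower (-0.74), where 50.3% of all genes were. The libraries of the lines overlapped for OGG1, APEX1 and PARP2. A list of other base excision, mismatch and end-joining genes had 12 of 25 lower in the shCON pair (median 0.026). In the shDDX52 pair 14 of those 25 were lower (-0.10). UNG, which removes uracil, was at 151 and 143 TPM in 22RV1 and 64.3 and 65.1 TPM in PC3. MUTYH, which removes adenine opposite oxidised guanine, was at 36.5 and 38.1 TPM in 22RV1 and 10.5 and 9.76 TPM in PC3. FANCG was at 46.1 and 45.2 TPM in 22RV1 and 20.3 and 21.0 TPM in PC3. In these 3 genes the libraries of each line lay close together and far from those of the other line. Centring on length and GC content left 8 of the 9 base excision genes lower in PC3.

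Other genes of these pathways were taken from lists of related genes. Of 92 further repair and checkpoint genes tested in 22RV1, 62 were lower and 30 higher (median -0.087), with 4 falling past 1.5-fold and 1 rising, 4.35% and 1.09% of the list where 8.47% and 5.61% of all genes did. In PC3, 62 of 93 were lower (median -0.097), with 9 falling and 2 rising, 9.68% and 2.15% where 9.84% and 8.95% of all genes did. The falling shares were thus near or under the background. The PC3 median was 0.025 and 46 of 93 were lower on nuclear protein-coding scaling, where the median of all PC3 genes was 0.084. Relative to the median of all genes, these genes lay at -0.061 before and -0.059 after this rescaling. In 22RV1 the median was 0.011 and 42 of 92 were lower after centring on length and GC content. Nucleotide excision repair genes, which remove bulky adducts, had medians of -0.01 in 22RV1 (11 of 19 lower) and -0.08 in PC3 (10 of 18 lower), and both turned positive on nuclear protein-coding scaling. Other recombination and Fanconi genes had medians of -0.14 (22 of 28 lower) and -0.07 (21 of 29 lower), the latter 0.030 on nuclear protein-coding scaling. Other base excision, mismatch and end-joining genes had medians of -0.17 (17 of 25 lower) and -0.10 (19 of 25 lower), of which the first was 0.01 after centring on length and GC content and the second 0.025 on nuclear protein-coding scaling. Other checkpoint genes had medians of -0.06 (12 of 20 lower) and -0.15 (12 of 21 lower), the first 0.07 after centring on length and GC content. MDC1, the adaptor that spreads the break signal along chromatin, fell in both lines and was at 187 and 122 TPM in 22RV1 and 53.2 and 21.3 TPM in PC3 (-0.61 and -1.28). ABRAXAS1, the scaffold of a BRCA1 complex, fell in both at low levels, with 1.87 and 0.66 TPM in 22RV1 and 1.40 and 0.48 TPM in PC3. In the other direction, GEN1, a resolvase of recombination intermediates, rose in PC3 from 0.73 to 2.94 TPM (1.19) and was at 1.41 and 0.85 TPM in 22RV1. CLSPN, an adaptor of CHEK1, rose in 22RV1 from 3.70 to 6.09 TPM (0.59), and GTF2H3, a TFIIH subunit gene, rose in PC3 (0.66).

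Genes that DNA damage is known to induce through p53 were also listed. Of 20 p53 target genes tested in 22RV1, 12 were higher with shDDX52 and 8 lower (median 0.14), and of 19 in PC3, 11 were higher and 8 lower (median 0.06). In 22RV1, 4 rose past 1.5-fold (20% of the list, 5.61% of all genes) and 0 fell. In PC3, 2 rose (10.5%, beside 8.95%) and 1 fell (5.26%, beside 9.84%). CDKN1A, a cell cycle inhibitor, rose in both lines, being at 109 and 186 TPM in 22RV1 and 31.2 and 76.3 TPM in PC3. BTG2, an antiproliferative gene, rose from 12.4 to 33.4 TPM in 22RV1 and was at 0.70 and 1.31 TPM in PC3. PHLDA3 fell in PC3 from 85.3 to 49.4 TPM (-0.77), and MDM2 and BAX had ratios of -0.52 and -0.36 there, beside 0.17 and 0.33 in 22RV1. Many repair genes follow the cell cycle, so proliferation genes are given beside them. Of 20, 14 were lower in 22RV1 (median -0.10) and 8 in PC3 (median 0.08), with 0 past 1.5-fold in either line. Of all genes, 8.47% fell and 5.61% rose past 1.5-fold in 22RV1, and 9.84% and 8.95% in PC3. The summed level of the proliferation genes was 3124 and 3021 TPM in 22RV1 and 2003 and 2040 TPM in PC3. Their part in the repair gene values was not tested.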

How the data were processed

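Total RNA was extracted with Trizol and made into TruSeq libraries, and per the study's methods a provider sequenced and mapped them on its online platform. The submitters' processing notes name CASAVA, HISAT2 and hg19 without roles. The counting program, annotation and strand setting are not given in the sources used here. The deposited values are TPM per Ensembl gene, computed by the authors for each library, with 1 table per cell line and 1 column per library. Columns were matched to samples by cell line and shRNA in the labels. TPM sums to 984448 to 990861 per library and keeps no read depth, so no count model or interval was possible.

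Log2 ratios used a pseudocount of 1 TPM and only genes reaching 1 TPM in a library compared. Thresholds were 1.5-fold for shDDX52 over shCON, 2-fold between lines, and a log2 ratio of 0.32 for patterns across lines. With 1 library per condition no test was run, and the share of all genes past the same threshold is given instead. The genes, lists and thresholds were chosen with earlier results of these data known. Genes given in full were the 6 lowest and 6 highest ratios per line, those past 1.5-fold, those past 0.32 in one direction in both lines, and the 5 furthest apart between lines each way. The other members' values were added to account for the whole list. Comparison-list genes were named past 1.5-fold or as examples.

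Gene types, lengths, GC content, overlaps and neighbours came from GENCODE 29 on GRCh38 and promoters from RefSeq on GRCh38.p14. The labels name hg19, so these positions describe the reference and not the deposited values. Other pseudocounts, filters, scalings and centrings were tried. Scripts were tested on simulated data. The analysis ran in Python 3.11.15 with numpy 2.4.6, pandas 2.3.3, scipy 1.17.1 and matplotlib 3.10.9.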

Additional observations from a re-analysis of the deposited data

Results flagged for a closer look

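BRCA1 and BRIP1 were lower with shDDX52 in 22RV1 and higher in PC3, each past 1.5-fold in each line. The log2 ratio in PC3 minus that in 22RV1 was 1.64 for BRCA1 and 1.30 for BRIP1. With 1 library per condition the difference was not tested. Over the alternatives, the BRCA1 ratio lay between -0.82 and -0.61 (22RV1) and between 0.82 and 1.0 (PC3), and the BRIP1 ratio between -1.18 and -0.57 and between 0.56 and 0.76. Under some of these the BRIP1 ratio was below 1.5-fold in each line, and BRIP1 was under 5 TPM in every library.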

How the results depend on the processing

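The 11 results on the whole list (medians and counts) were recomputed under 77 alternatives, of which 66 gave a value within tolerance and 11 moved it further. Among the medians 0 reversed sign, while counts have no sign to reverse. The tolerance was 0.1 on the log2 scale for medians and single genes and 1.5 times for counts, so values within it also differed, such as 10 genes 1.5-fold lower in PC3 beside the 7 reported. Centring on genes alike in length and GC gave a 22RV1 median of -0.087, 1 gene 1.5-fold lower in 22RV1 and 1 higher in PC3. Requiring 5 TPM gave 2 genes lower in 22RV1, 2 lower and 1 higher in PC3, 1 gene 2-fold higher in PC3 than 22RV1 in both pairs, and a median between the control libraries of -0.54. Centring on the median of all genes left 2 genes lower in 22RV1. Nuclear protein-coding scaling gave a PC3 median of -0.0047, and a pseudocount of 0.1 TPM gave 5 genes 2-fold higher in PC3 than 22RV1. Among 57 single-gene results and 378 alternatives, 297 were within the tolerance, 81 moved further and 4 had the other sign (LIG3 and POLB in PC3, XRCC2 and RECQL4 in 22RV1). Over all members, rescaling or centring turned the sign of 12 of 49 ratios in 22RV1 and 9 of 51 in PC3. No paired analysis was possible because the libraries carry no replicate numbers. A fit with the cell line as a block, which would take the lines as replicates, was not run. Leaving out a library would remove a condition. Depth is unknown, so the precision of genes near 1 TPM cannot be given, and a batch, a culture and the shRNA cannot be told apart.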
